A study of Homo sapiens with 6 samples.

Results

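The cytosolic ribosomal protein genes were taken as every entry whose symbol begins with RPL or RPS and goes on with a number, an optional P before it for the acidic stalk proteins, and an optional A, X, L or L1 at its end. This gave 83 of 21314 entries, of which 31 name proteins of the small (40S) subunit and 52 name proteins of the large (60S) subunit or its stalk, and their transcripts were followed in every library. The cells were ARPE-19, an established human cell line from retinal pigment epithelium. Both groups had been transduced with lentivirus at a multiplicity of infection of 10, selected with puromycin at 4 µg/ml and then kept in 37.5 mM glucose for 48 h. The control group carried the control lentivirus and the PDZK1 group the lentivirus for overexpression of PDZK1, which is a PDZ domain scaffold protein (n = 3 libraries each). The labels give neither the promoter of the vector nor whether the 3 libraries of a group came from separate transductions, so p-values measure only the spread between these libraries. A normal-glucose group was not analysed here, so every comparison lies within high glucose.

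Ribosomal proteins are made in fixed proportion to each other and assemble with ribosomal RNA into the particles that translate all other messenger RNAs. Their transcripts begin with a terminal oligopyrimidine (TOP) motif, a C at the first base followed by an unbroken run of C and U. The mTORC1 kinase controls how well such transcripts are translated, in part through the cap-binding repressor LARP1 and the 4E-BP proteins, while their abundance in the cell is usually steady. The study followed the mTOR pathway in these cells, and the comparison asked whether the abundance of its best known translation targets differed between the groups. RNA sequencing of total RNA measures abundance and not ribosome loading.

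The start sites show the shared motif. In the RefSeq annotation of GRCh38.p14, 66 of the 83 genes had a window around the transcription start, and in 46 of them (69.7%) a start was a C followed by at least 4 bases that were each C or T. The same held for 929 of 15265 other protein-coding genes (6.09%), for 6 of 69 genes of mitochondrial ribosomal proteins (8.7%) and for 10 of 11 other known TOP genes with a window (90.9%), where a gene with several annotated starts counted if any of them matched. The windows below run 5′ to 3′ on the transcribed strand, with 5 bases before the annotated start and 15 bases from it on, which open the first exon. Capitals mark the C at the start with its run of C and T. They are shown for the 4 genes that passed the test between the groups, for RPS6 and RPLP0, and for RPL7L1 and RPS27L, whose start did not match.
RPL22 (chr1:6199581-6199600, minus strand): acctcCCTTTCTaactccgc
RPL22L1 (chr3:170870181-170870200, minus strand): gcttcCTCTCTgctctcgcg
RPLP2 (chr11:809962-809981, plus strand): gccttCCTTTTCCTCCCTgt
RPL27A (chr11:8682787-8682806, plus strand): ccttcCTTTTTCgtctgggc
RPS6 (chr9:19380222-19380241, minus strand): tggccCTCTTTTCCgtggcg
RPLP0 (chr12:120201097-120201116, minus strand): gaggcCCTTCTCTCgccagg
RPL7L1 (chr6:42879611-42879630, plus strand): gcgccgtagctaggagcgga
RPS27L (chr15:63157463-63157482, minus strand): cgagcgcagatcgcttgcag
A match is a description of these letters at an annotated start. The 46 genes with the motif and the 19 tested genes with a window but no match had median log2 fold changes of -0.017 and -0.038 between the groups.

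Total counts per library ran from 27970618 to 32804567. PDZK1 itself checked the labels, with 19, 18 and 23 counts in control against 3020, 2541 and 2828 counts in PDZK1 libraries (log2 fold change 7.03, SE 0.131, edgeR adjusted p 8.16e-09). Keratins KRT8 and KRT18 were abundant and OTX2 and MITF were present, whereas RPE65 and TTR were at 0 in every library and TYR and DCT never passed 0.125 CPM. RLBP1 (3.08 to 5.18 CPM), PMEL (1.89 to 3.11), TYRP1 (0.971 to 1.96) and SERPINF1 (0.366 to 1.38) were low but present in every library. Summed over 13 pigment epithelium markers the level was 1911 to 2150 CPM in control and 1968 to 2437 CPM in PDZK1 libraries, the upper end being PDZK1 replicate 1, where BEST1 stood at 358 CPM against 4.32 to 5.60 CPM in the others. KRT8 (1073 to 1221 CPM) and KRT18 (699.5 to 826.1 CPM) held most of each sum, so the sum says little about the other markers. Of 9 markers of other cell types, 4 were at 0 in every library and 8 averaged under 1 CPM, the exception being CD68, and the list summed to 130.9 to 160.7 CPM in control and 123.3 to 126.5 CPM in PDZK1 libraries. CPM are counts scaled to the library size after TMM normalization.

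The ribosomal protein genes were among the most abundant transcripts of these cells, and the share of the counts they took together differed between the groups by less than the spread of the libraries. The 83 genes held 3.98%, 4.06% and 4.37% of all counts in the 3 libraries with the control virus, and 4.06%, 4.26% and 4.01% in the 3 with PDZK1. The groups overlapped, the highest share being that of control replicate 3 and the next that of PDZK1 replicate 2. The means were 4.14% ± 0.205 in control and 4.11% ± 0.130 in PDZK1 libraries (SD, n = 3), a difference of -0.025 percentage points against a pooled SD of 0.171. For the small subunit the shares were 1.48% ± 0.0747 and 1.47% ± 0.0525, and for the large subunit 2.66% ± 0.130 and 2.64% ± 0.0773.

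The genes varied together from library to library, and the groups overlapped in their median. Relative to its own mean over the 6 libraries on the log2 CPM scale, the median ribosomal protein gene lay at -0.051, -0.012 and 0.084 in control and at -0.035, 0.050 and -0.043 in PDZK1 libraries (replicates 1 to 3). In control replicate 3, 70 of the 81 tested genes were above their own mean, and in PDZK1 replicate 2 it was 71. In control replicate 1 the number was 6, and in the remaining libraries 29, 18 and 15. Over all 13645 genes tested the medians of the libraries stayed between 0.00035 and 0.0050. Both subunits followed the same course, with 0.079 for the small and 0.086 for the large subunit in control replicate 3.

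**Figure D1:**
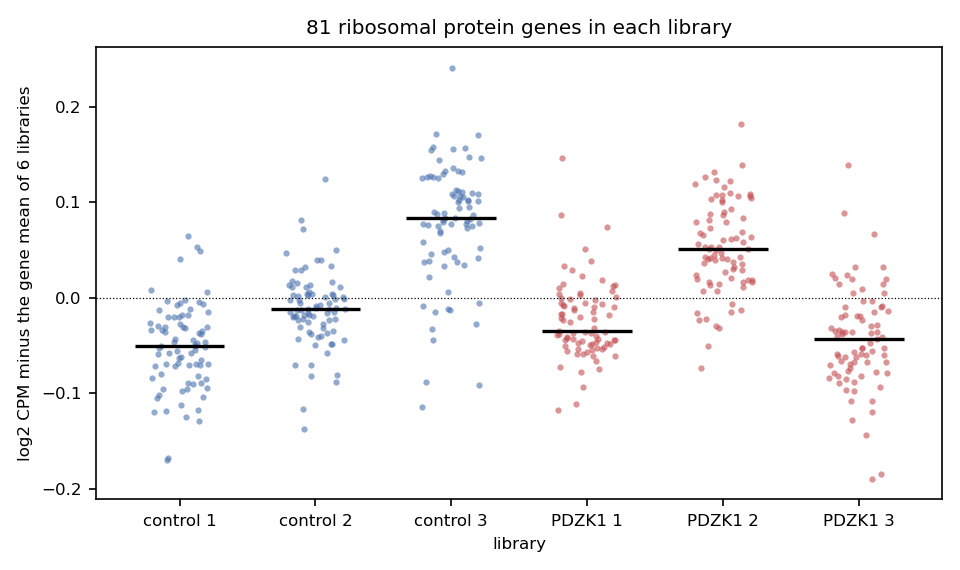
Each point is 1 of the 81 tested ribosomal protein genes, placed by its log2 CPM minus the mean of that gene over the 6 libraries (y axis), for each library (x axis), with control in blue, PDZK1 in red and a black line at the median. The 2 libraries with medians above 0 are control replicate 3 and PDZK1 replicate 2, 1 in each group.

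Between the groups, few ribosomal protein genes differed and all differences were small. Of 81 genes tested, 3 were higher with PDZK1 (RPLP2, RPL22L1 and RPL27A) and 1 was lower (RPL22) at an adjusted p under 0.05 in the robust quasi-likelihood test of edgeR, which is 4.94% of the genes against 3.83% of all 13645 genes tested. In each direction the share was 3.7% against 1.41% of all genes for higher and 1.23% against 2.41% for lower. Before adjustment 5 of the 81 genes had a p under 0.05, the fifth being RPL8, against 2388 of all 13645 genes tested. CPM values without overlap between the groups were found in 10 of the 81 genes (12.3%), against 23.9% of all genes tested. In related lists described below the share was 5.88% (other TOP transcripts), 9.52% (mTORC1 and cap-dependent translation), 10.3% (mitochondrial ribosomal proteins) and 18.5% (ribosome biogenesis). The median log2 fold change was -0.021, with 27 genes above and 54 below 0, beside a median of -0.00025 over all genes tested. The sign of the median over the ribosomal protein genes rested on single libraries: it was 0.024 without control replicate 3 and 0.0018 without PDZK1 replicate 3, and -0.051 without control replicate 1.

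The size of the intervals shows what these libraries could resolve. The median standard error of the log2 fold change was 0.049, against 0.075 over all genes tested. For 76 of the 81 genes the 95% interval of the fold change lay within 1.2-fold in either direction, and for all 81 tested genes it lay within 1.5-fold. The size of the log2 fold change exceeded 0.1 in 6 of the 81 genes (7.41%) and in 44.3% of all genes tested. Related lists described below also lay under the share of all genes. It was 0% in other TOP transcripts, 9.52% in mTORC1 and cap-dependent translation, 17.9% in mitochondrial ribosomal proteins and 18.5% in ribosome biogenesis.

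**Figure D2:**
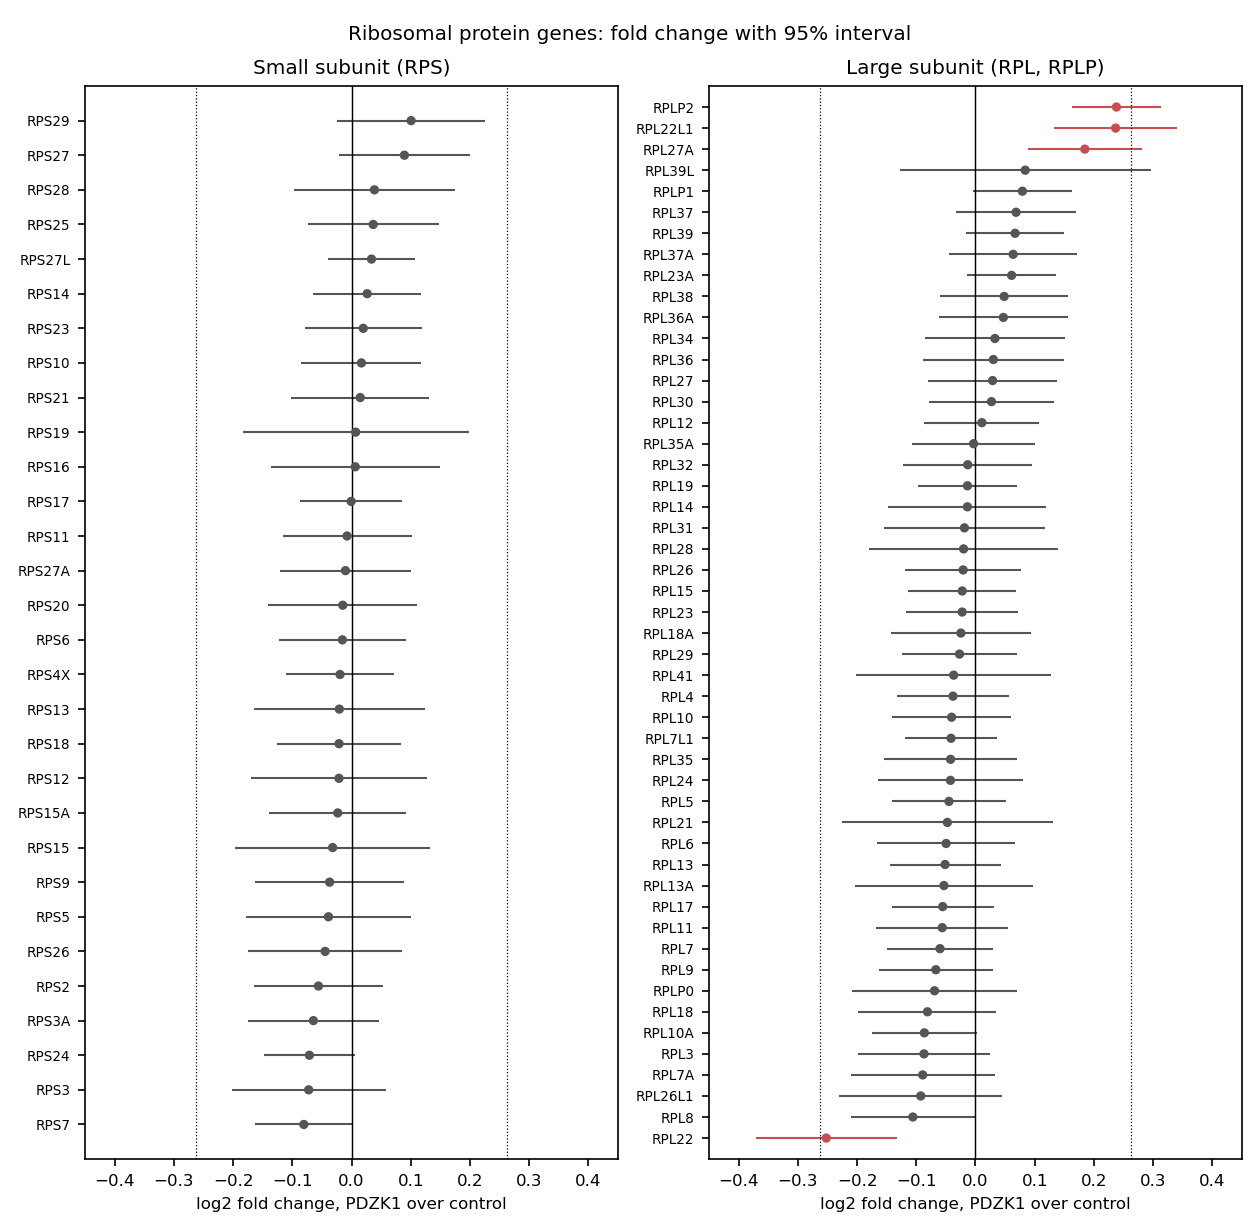
The log2 fold change of PDZK1 over control (x axis) is drawn with its 95% interval from edgeR for 30 of the 31 small subunit genes and for 50 large subunit genes (rows, sorted by value), red where the adjusted p is under 0.05, with dotted lines at a fold change of 1.2. The 4 genes in red belong to the large subunit, and the other genes lie between -0.11 and 0.10.

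In the small subunit none of 31 genes passed the threshold in edgeR, DESeq2 or limma-voom, and at an unadjusted p under 0.05 the numbers were 0, 0 and 1. Over all 13645 genes tested, 3.83% passed in edgeR and 2388 had an unadjusted p under 0.05. The median log2 fold change of the small subunit was -0.016, with 11 genes above and 20 below 0. RPS6, the small subunit protein that is phosphorylated by S6 kinase downstream of mTORC1, stood at 1033, 1069 and 1130 CPM in control and 1052, 1119 and 1026 CPM in PDZK1 libraries. The groups overlapped, and its log2 fold change of -0.016 (SE 0.048) had a 95% interval of -0.12 to 0.092. RPS2, the member with the highest mean FPKM, and RPS18, a protein of the head of the subunit, had log2 fold changes of -0.056 (SE 0.049) and -0.021 (SE 0.047). RPS13, on the short arm of chromosome 11, had -0.021 (SE 0.063).

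The highest and lowest values of the small subunit were those of RPS29 and RPS7. RPS29, a short zinc-binding protein, had a log2 fold change of 0.10 (95% interval -0.025 to 0.23). RPS27, also a zinc-binding protein, had 0.089 (-0.022 to 0.20), and neither passed the threshold (adjusted p 0.402 for each, edgeR). RPS7 had -0.081 (-0.16 to 0.0026, adjusted p 0.303), with 468, 486 and 495 CPM in control and 456, 468 and 448 CPM in PDZK1 libraries. RPS24 had -0.071 (adjusted p 0.326). These were the 2 small subunit genes whose groups did not overlap, which is 6.45% of 31, against 23.9% of all genes tested.

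In the large subunit 4 of 50 tested genes passed the threshold (8%, against 3.83% of all genes tested). The median log2 fold change of the subunit was -0.024, with 16 genes above and 34 below 0. RPL22 (ENSG00000116251, chromosome 1, 6185020 to 6209389, minus strand, GRCh38) encodes a protein at the surface of the large subunit that is dispensable for translation in general. Its level was 283.0, 288.7 and 322.4 CPM in control and 251.4, 259.2 and 240.1 CPM in PDZK1 libraries. All control libraries lay above all PDZK1 libraries. The mean fell from 298 ± 21.3 to 250 ± 9.62 CPM (SD, n = 3), with a log2 fold change of -0.25 (SE 0.053, 95% interval -0.37 to -0.13, edgeR adjusted p 0.0322).

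RPL22L1 (ENSG00000163584, chromosome 3, 170864875 to 170870483, minus strand) encodes a close paralogue that can take the place of RPL22 in the ribosome. It had 120, 129 and 125 CPM in control and 149, 153 and 137 CPM in PDZK1 libraries. Here every PDZK1 library was above every control library, the opposite order to RPL22. The mean rose from 125 ± 4.21 to 147 ± 8.22 CPM, with a log2 fold change of 0.24 (SE 0.047, 95% interval 0.13 to 0.34, adjusted p 0.0243). No numbered pseudogene of RPL22L1 is annotated, whereas RPL22 has 22, with which reads could be shared.

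RPLP2 (ENSG00000177600, chromosome 11, 809647 to 812880, plus strand) encodes an acidic protein of the stalk, the flexible arm of the large subunit that recruits translation factors. It had 264, 262 and 271 CPM in control and 306, 316 and 318 CPM in PDZK1 libraries. The groups were separated by more than the range of either, and the mean rose from 266 ± 4.58 to 313 ± 6.13 CPM, with a log2 fold change of 0.24 (SE 0.034, 95% interval 0.16 to 0.31, adjusted p 0.00455). The partners of RPLP2 in the stalk did not pass the threshold. RPLP1, with which it forms a dimer, had 597, 595 and 566 CPM in control and 607, 620 and 631 CPM in PDZK1 libraries, without overlap (log2 fold change 0.079, 95% interval -0.0044 to 0.16, adjusted p 0.313). RPLP0, the base of the stalk, had 1540, 1570 and 1795 against 1534, 1636 and 1506 CPM, with overlap (log2 fold change -0.069, 95% interval -0.21 to 0.070).

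RPL27A (ENSG00000166441, chromosome 11, 8682411 to 8714759, plus strand), a core protein of the large subunit, had 705, 750 and 778 CPM in control and 835, 859 and 844 CPM in PDZK1 libraries. The groups did not overlap, and the mean rose from 745 ± 36.7 to 846 ± 12.3 CPM, with a log2 fold change of 0.18 (SE 0.043, 95% interval 0.088 to 0.28, adjusted p 0.0472).

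**Figure D3:**
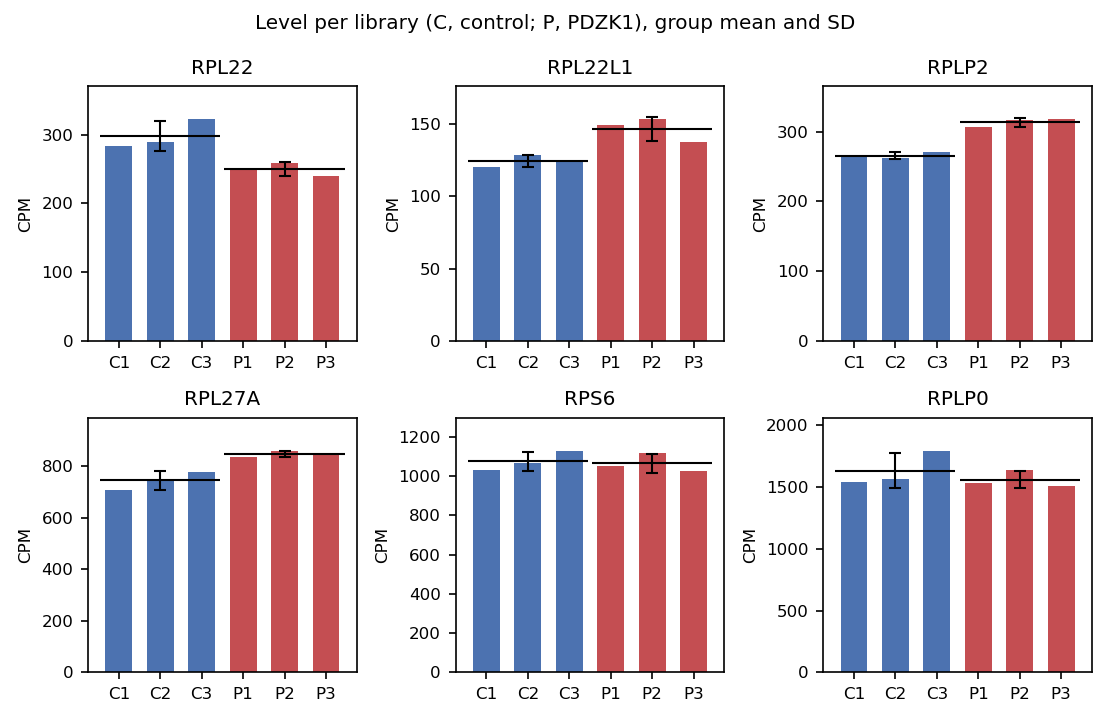
Bars give the level in CPM (y axis, from 0) of RPL22, RPL22L1, RPLP2, RPL27A, RPS6 and RPLP0 in each library (C, control; P, PDZK1; replicates 1 to 3), with black lines at the group means and error bars of 1 SD (n = 3). The groups are apart in the first 4 genes and overlap in RPS6 and RPLP0.

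Fits with 1 library left out called fewer genes than the full fit, 181 to 293 genes in all against 522, except for 875 without control replicate 3. RPLP2 passed the threshold with any library left out (adjusted p 0.00112 to 0.0396). RPL22 did not pass without control replicate 2 (0.0918) or PDZK1 replicates 1 (0.139), 2 (0.0633) or 3 (0.155). RPL22L1 did not pass without control replicates 1 (0.099) or 2 (0.0742) or PDZK1 replicates 1 (0.118) or 2 (0.0799). RPL27A passed with control replicate 3 left out (0.0044) and with no other library left out (0.132 to 0.169 without control replicates 1 or 2 or any PDZK1 library). The log2 fold changes over these fits ran from -0.29 to -0.19 for RPL22, from 0.21 to 0.28 for RPL22L1, from 0.15 to 0.22 for RPL27A and from 0.23 to 0.26 for RPLP2. On FPKM, tested with limma, RPLP2 alone of the 4 passed (adjusted p 0.0225 to 0.0291), and with a non-robust edgeR fit RPL22 (0.053) and RPL27A (0.061) did not pass.

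The medians of the genes around RPL22, RPLP2 and RPL27A lay in the same direction as those members. Within 1 Mb of RPL22, 15 of 16 other tested genes were lower with PDZK1, with a median log2 fold change of -0.21, and 2 of them passed the threshold as lower. RPL22 lay 0.040 log2 units below that median, and 6 of the 16 genes were lower than RPL22. Over all 13645 genes tested, 6837 were lower and 6808 higher, with 2.41% past the threshold as lower and 1.41% as higher. Within 1 Mb of RPLP2, 36 of 45 genes were higher (median 0.10), and 4 genes passed the threshold as higher and 2 as lower. Within 1 Mb of RPL27A, 14 of 15 were higher (median 0.12), and 1 gene passed the threshold in each direction. RPLP2 exceeded the median of its surroundings by 0.14 and RPL27A by 0.063. Higher than RPLP2 were 10 of its 45 neighbours, and higher than RPL27A was 1 of its 15. Around RPL22L1, 6 of 9 genes were higher and 3 lower, with a median of 0.019, which RPL22L1 exceeded by 0.22. Higher than RPL22L1 were 0 of these 9. The part of the surroundings in these results was not tested.

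Members elsewhere on the same chromosome arms that are described here did not pass the threshold. RPL11 and RPL5, which with 5S RNA form the particle that binds MDM2 when ribosome assembly fails, had log2 fold changes of -0.056 (SE 0.050) and -0.045 (SE 0.043), and the medians within 1 Mb of them were -0.034 and 0.0029. RPS13 on the short arm of chromosome 11 had -0.021 against 0.072 around it.

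The genes compared here that overlap RPL22, RPL27A and RPLP2 on the other strand were much less abundant. ST5, also annotated opposite to RPL27A, and AL031847.2, a coding gene on the same strand as RPL22, were not compared. RNF207, opposite to RPL22, had 14.6 to 18.6 CPM and a log2 fold change of -0.12 (adjusted p 0.603). TRIM66, opposite to RPL27A, had 23.8 to 30.0 CPM (0.13, adjusted p 0.56), and PIDD1, opposite to RPLP2, had 12.3 to 18.0 CPM (0.24, adjusted p 0.287). The strand setting of the counting is not given in the sources used here, so reads of such partners cannot be told apart.

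RPL8, a large protein at the peptidyl transferase centre, was the lowest of the large subunit genes that did not pass. It had 759, 771 and 842 CPM in control and 735, 754 and 716 CPM in PDZK1 libraries, without overlap, and a log2 fold change of -0.11 (95% interval -0.21 to -0.0016, adjusted p 0.279). RPL7A (-0.089) and RPL3 (-0.087), both among the most abundant genes of the subunit, had intervals that held 0 and adjusted p of 0.447 and 0.413. RPL10A had -0.086 (adjusted p 0.298) and RPL23A had 0.061 (adjusted p 0.398), both without overlap between the groups. RPL37 and RPL39, among the shortest proteins of the large subunit, had 0.068 (adjusted p 0.488) and 0.067 (adjusted p 0.401).

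Some members have a paralogue in the genome, and the balance of each pair was compared as reads of the paralogue per 100 reads of the canonical gene. RPL3L and RPL10L, the forms of heart and skeletal muscle and of testis, had 0 counts in all 6 libraries, which allows at most 0.109 CPM in the shallowest of them (3 counts, counting error only). The other 5 pairs gave a ratio. RPL22L1 had 42.5, 44.6 and 38.7 reads per 100 reads of RPL22 in control and 59.4, 59.1 and 57.2 in PDZK1 libraries. The lowest PDZK1 library was well above the highest control library, and the mean was 41.9 ± 2.98 against 58.6 ± 1.18 (SD, n = 3), a ratio of 1.40. Because RPL22L1 was higher and RPL22 lower in every PDZK1 library, the ratio had to be without overlap. It restates the results of these genes given above and is no further support for them. For the same reason the exact two-sided permutation test could give only p = 0.1, the smallest p that 3 against 3 libraries allow. After adjustment over the 5 pairs it was 0.5.

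The sum of RPL22 and RPL22L1 was 403, 417 and 447 CPM in control and 401, 412 and 378 CPM in PDZK1 libraries, so that the groups overlapped in the sum and not in the ratio. The mean of the sum was 423 ± 22.4 in control and 397 ± 17.8 CPM in PDZK1 libraries. In mice the Rpl22 protein is known to bind the Rpl22l1 transcript and to lower it, and no such binding was measured here.

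The other 4 pairs overlapped between the groups. RPL7L1, a factor of ribosome assembly related to RPL7, had 21.9 ± 0.816 reads per 100 in control and 22.2 ± 0.650 in PDZK1 libraries. RPL26L1 had 9.01 ± 0.553 and 8.57 ± 0.513 per 100 reads of RPL26, and RPL39L, a form enriched in testis, had 6.98 ± 0.205 and 7.06 ± 0.0917 per 100 reads of RPL39. RPS27L, which is a p53 target, had 150 ± 4.23 reads per 100 reads of RPS27 in control and 145 ± 8.11 in PDZK1 libraries. Per length it was lower than RPS27, with 82.6 ± 1.01 against 382 ± 18.5 FPKM in control libraries, the lengths behind these values being 2522 and 383 bases. The exact p ranged from 0.4 to 0.8 in these pairs. The log2 fold changes of the paralogues themselves were -0.041 for RPL7L1, -0.093 for RPL26L1, 0.084 for RPL39L and 0.034 for RPS27L, with no adjusted p under 0.492.

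**Figure D4:**
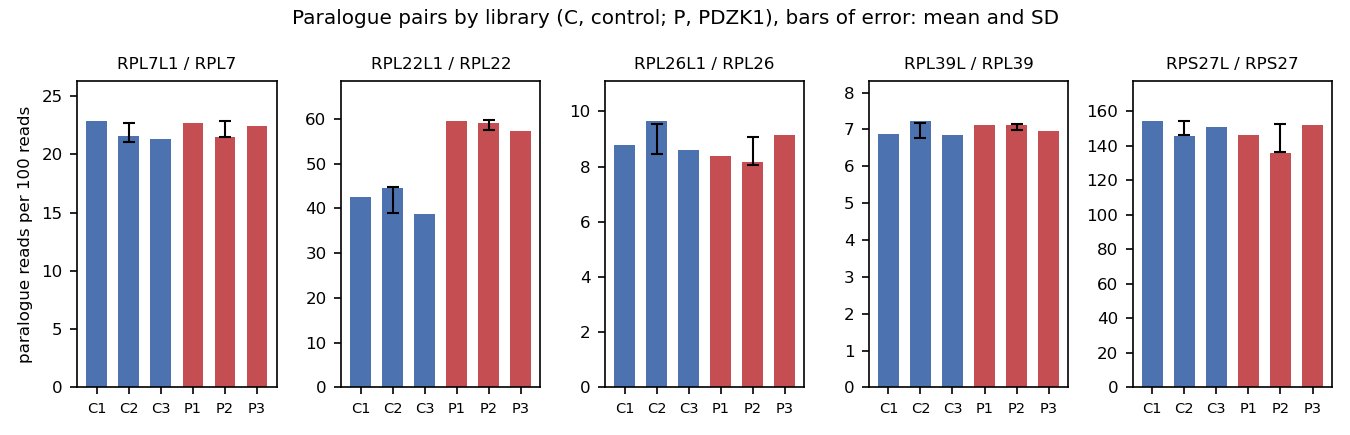
Bars give reads of the paralogue per 100 reads of the canonical gene (y axis, from 0) in each library (C, control; P, PDZK1; replicates 1 to 3) for the 5 pairs with reads, with error bars at the group mean of 1 SD (n = 3). The RPL22L1 and RPL22 pair is at 38.7 to 44.6 in control and 57.2 to 59.4 in PDZK1 libraries, and the other pairs overlap.

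Levels between genes can be compared only per length, for which FPKM was used. The 5 members with the highest mean FPKM over the 6 libraries were RPS2 (1559), RPLP0 (1380), RPL3 (1288), RPL13A (1283) and RPS18 (1208). Their ranges over the libraries overlapped from each to the next, for example 1436 to 1777 for RPS2 and 1275 to 1499 for RPLP0. In all, 74 of the 83 genes had a mean above 100 FPKM. The lowest were RPL3L and RPL10L, at 0, and then RPL39L (12.5), RPL37 (42.2) and RPL7L1 (46.8), which differ by more than their ranges except that RPL37 (39.5 to 45.5) and RPL7L1 (44.2 to 48.5) overlap.

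The length behind an FPKM value limits such an order. Counts divided by FPKM and library total give the length that the authors' program used, and for RPL37 this was 6057 to 6779 bases against a coding length of 291 bases. The implied length also changed between libraries. The highest was over 1.5 times the lowest in 4 of the 81 genes, and for RPL14 it ran from 1725 to 5916 bases. The fold change on FPKM had the opposite sign to that on counts in 12 of the 81 genes, none of which passed the threshold on either scale, and in 10 of the 12 its size on FPKM was under 0.1 on the log2 scale. The largest of these was RPS20, one of the 4 genes above, with 437, 497 and 621 FPKM in control and 849, 866 and 661 FPKM in PDZK1 libraries. Its groups did not overlap on FPKM, with a log2 fold change of 0.62 (limma adjusted p 0.135), against -0.015 on counts, while its implied length was 901 to 1107 bases in control and 588 to 780 bases in PDZK1 libraries. RPLP1, also one of the 4, had -0.12 on FPKM (adjusted p 0.819) against 0.079 on counts, with an implied length of 977 bases in PDZK1 replicate 1 and 623 to 639 bases in the others. RPS2, RPLP0, RPL10 and RPL11 had 0.072, 0.0074, 0.0049 and 0.035 on FPKM against -0.056, -0.069, -0.040 and -0.056 on counts.

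Among the ribosomal protein genes, the small differences were ordered by the length of the coding sequence. The 27 members with the longest coding sequences, from 564 to 1281 bases, all had a log2 fold change below 0 (median -0.051), whereas of the 27 with the shortest, from 75 to 396 bases, 18 were above 0 (median 0.034). Across 81 genes Pearson's r of the log2 fold change with log2 coding length was -0.47 and Spearman's rho -0.67, a description across genes that share the same 6 libraries and their scaling. Over 13528 tested genes with a coding length the values were 0.0043 and 0.034. Across the 81 genes the log2 fold change also ran with log2 mean CPM (Pearson's r -0.35, Spearman's rho -0.43). The parts of length and abundance were not separated. With any 1 library left out, r with coding length over the members ran from -0.51 to -0.41. After a smooth correction of each library for the length implied by counts and FPKM, it was -0.46. That length is not the coding length, so this value cannot show whether the order would remain after a correction for coding length.

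The medians were also compared library by library. Each deviation is taken from the gene's mean over all the libraries, so opposite orders in the groups partly restate the fold changes above. The median deviation of the shortest members was below that of the longest in each control library (-0.089 against -0.020, -0.013 against -0.0049 and 0.042 against 0.11) and above it in each PDZK1 library (-0.0094 against -0.044, 0.088 against 0.031 and -0.029 against -0.067). Over the tested members, Pearson's r of the deviation with log2 coding length was 0.47, 0.083 and 0.39 in control libraries (replicates 1 to 3). In PDZK1 libraries it was -0.30, -0.47 and -0.27. The shortest gene, RPL41, did not follow the order by length, with a log2 fold change of -0.037. RNA fragment length and integrity are not given in the sources used here, and their part was not tested.

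**Figure D5:**
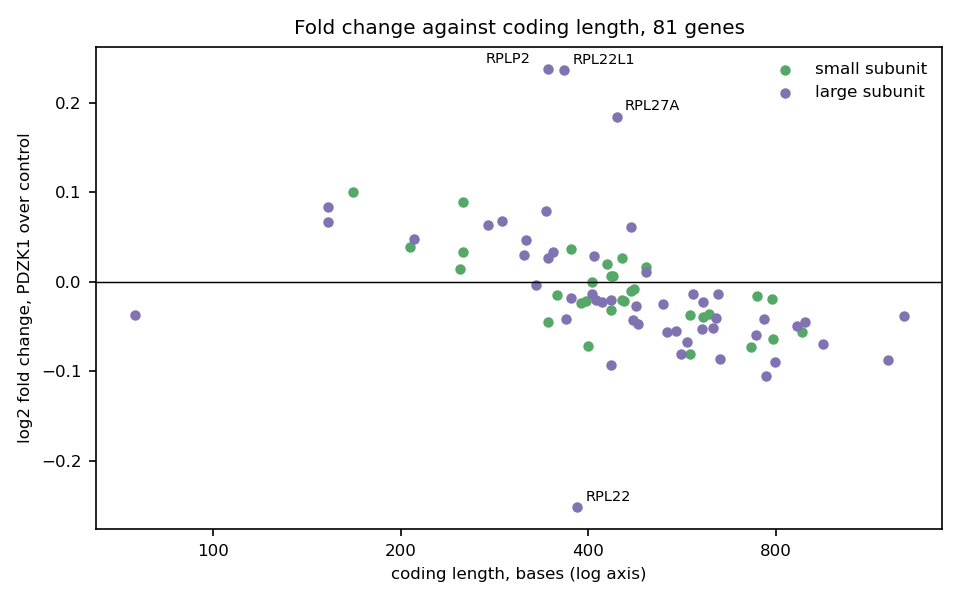
The log2 fold change of PDZK1 over control (y axis) is plotted against the coding length in bases (x axis, log scale) for 81 ribosomal protein genes, coloured by subunit, with the 4 genes past the threshold named. All 27 genes with coding sequences of 564 bases or more lie below 0.

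The genes shared other features that the choice by name did not use. A small nucleolar RNA gene lies within 27 of the 83 (32.5%) and within 1.45% of 13441 other tested protein-coding genes, and hosts and non-hosts had median log2 fold changes of -0.025 and -0.019. Numbered pseudogenes are annotated for 76 of the 83 genes, 1070 in all with a median of 8 a gene, so that reads of most members could be divided with copies. The genes lie on 21 chromosomes. The median coding length of the 83 genes was 453 bases, against 1419 bases for the other tested genes.

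Few genes in the rest of the translation machinery passed the threshold. Over all 13645 genes tested, 3.83% passed in edgeR, 5.81% in DESeq2 and 3.86% in limma-voom. An unadjusted p under 0.05 was found for 2388 of them in edgeR. For lists of 4 and 17 genes, a count of 0 past the threshold lies near such shares. Of 4 ribosomal proteins whose symbols fall outside the pattern, RPSA among them, none passed the threshold in edgeR, DESeq2 or limma-voom, none had an unadjusted p under 0.05 in them, and the median log2 fold change was -0.015. The same numbers were 0 for 17 other TOP transcripts, which encode elongation factors such as EEF1A1 and EEF2, initiation factors and the poly(A) binding protein PABPC1. Their median was -0.032, with 14 of 17 below 0. Of 54 genes of ribosome biogenesis none passed in these tools, with 6, 4 and 5 genes at an unadjusted p under 0.05 and a median of -0.0015. Of 78 genes of mitochondrial ribosomal proteins none passed in these tools, with 3, 2 and 3 genes at an unadjusted p under 0.05 and a median of -0.0058.

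Of 21 genes of mTORC1 and cap-dependent translation, 1 passed the threshold (4.76%, against 3.83% of all genes tested) and it was lower. MTOR, the kinase of the complex (chromosome 1, start 11106535), had 90.1, 86.6 and 80.6 CPM in control and 72.2, 72.3 and 68.9 CPM in PDZK1 libraries. The groups did not overlap, and the log2 fold change was -0.27 (SE 0.051, edgeR adjusted p 0.0195). It did not pass without control replicates 1 (0.0743) or 2 (0.104) or PDZK1 replicates 1 (0.0856), 2 (0.0542) or 3 (0.106), nor on FPKM (limma adjusted p 0.118 to 0.137). Its log2 fold change with a library left out ran from -0.31 to -0.23. MTOR lies on the short arm of chromosome 1, as does RPL22 (start 6185020), around which the median log2 fold change was -0.21. The genes around MTOR were not compared with it, and the part of its surroundings was not tested. The other genes of the list did not pass. Among them LARP1 had 0.051 (adjusted p 0.534), EIF4EBP1 0.0047 (0.984), EIF4EBP2 -0.081 (0.258), RPS6KB1 -0.025 (0.905) and RPTOR -0.0031 (0.988). The median of the list was -0.0006. In bulk RNA a smaller share of cells with a transcript and fewer copies per cell cannot be told apart, and this holds for each difference given here.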

How the data were processed

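RNA sequencing libraries of ARPE-19 cells (3 control, 3 PDZK1) were analysed from 2 tables deposited by the authors, one of estimated counts (whole numbers, unscaled) and the other of FPKM (scaled by transcript length and library). The submitters' processing notes name fastp 0.20.1, HISAT2 2.2.1 and GRCh38, and the counting program and strand setting are not given in the sources used here. In each of them, 3 columns match no sample and were not used, and 853 assembled loci were not tested.

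Genes passing filterByExpr (13645) were tested with edgeR 4.0.16 in R 4.3.3 (TMM scaling, robust quasi-likelihood, Benjamini-Hochberg over all of them, threshold 0.05), after a check on simulated data. Alternatives were DESeq2 1.42.0, limma 3.58.1 (voom, or a trend on log2(FPKM + 1) and log2(FPKM + 0.1) at a mean FPKM of at least 0.5 or unfiltered), other scalings and filters, a correction for gene length, a replicate block, and each library left out. Fold changes on FPKM are on the log2(FPKM + pseudocount) scale. The gene length used in the correction was counts divided by FPKM, and not the coding length. Gene models came from GENCODE 29 (83 of 83 genes matched), coding lengths from the APPRIS principal transcript and start windows from RefSeq. Paralogue ratios were tested by exact permutation. The members and lists were chosen with earlier results of these data known. The rule named RPS6, RPLP0, every member past the threshold, the 5 highest and 5 lowest by FPKM and by fold change, 7 paralogue pairs, members on 1p and 11p, and list genes past the threshold. The arms 1p and 11p were taken because earlier results of these data gave stretches there that move together. RPS7, RPS24, RPLP1, RPL10A, RPL23A, RPL14, RPL41, RPS20 and list genes that did not pass were named after their values were seen, and some genes of the rule and the lists are not reported here. Total counts set the precision, and floors for counts of 0 cover counting error only.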

Additional observations from a re-analysis of the deposited data

How the results depend on the processing

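The same 4 ribosomal protein genes passed the threshold under DESeq2, limma-voom, 4 other scalings, both other count filters, the gene length correction and an adjusted p under 0.1. The number was 1 under each of the 3 limma fits on FPKM, 2 without robust estimation, 0 when the threshold also asked for a fold change above 1.2, and 1 to 4 with a library left out. Same-numbered libraries did not deviate together (correlations of -0.046, -0.056 and -0.143), so the numbers were not taken to pair them. With the replicate number as a block 1 gene passed (RPLP2), and with the block and the length correction 1 (RPL22L1, with RPLP2 at an adjusted p of 0.0558). In the lists of the translation machinery the number was 1 (MTOR), 1 on FPKM where MTOR did not pass and MRPL42 did, 0 with the block, and 0 to 3 with a library left out, the 3 (MTOR, PDCD4 and EIF6) without control replicate 3. Over the alternatives with every library kept, no median over the members or a subunit moved by more than the spread between libraries. The sign of these small values was not fixed: with a library left out the median ran from -0.051 to 0.024 over the members, from -0.048 to 0.035 over the small and from -0.054 to 0.012 over the large subunit, and the small subunit median was 0.0024 with library totals and 0.0011 on FPKM. The difference in the share of counts was 0.040 percentage points on FPKM and ran from -0.10 to 0.090 with a library left out. The share of genes with the start motif was 81.8% when a run of at least 8 C or T within 10 bases of the start was taken instead, a choice made after seeing the data, as were the comparison with genes within 1 Mb and the median without the 4 genes that passed (-0.021).

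Among named genes, directions turned in some that had not passed the threshold and in none that had. On FPKM (both pseudocounts, and unfiltered) the values of those under the naming rule were 0.0049 for RPL10, 0.035 for RPL11, 0.0074 for RPLP0 and 0.072 for RPS2. With a library left out the ranges were -0.10 to 0.022 for RPL13A, -0.051 to 0.013 for RPL26, -0.11 to 0.0027 for RPLP0, -0.060 to 0.025 for RPS18, -0.079 to 0.031 for RPS13 and -0.050 to 0.020 for RPS6, and RPS6 was at 0.0024 when scaled by library totals only. The cause was not tested.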
